A study of Rattus norvegicus with 17 samples.

Results

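The genes described here encode proteins of the centrosome and the cilium: the Cep proteins, named for their place at the centrosome, the Haus subunits of the augmin complex and the Ift subunits of the intraflagellar transport trains. Members were chosen by name and biotype, as protein-coding entries whose symbol begins with Cep, Haus or Ift followed by a number. This gave 54 members among 32495 named entries, of which 22242 were protein-coding: 34 Cep, 7 Haus and 13 Ift genes. The grouping itself was proposed with fold changes of these libraries known, so the counts of members below are a description and are given beside the same share over all genes. RNA came from the gastrocnemius, a calf muscle, of rats in 3 groups that all received the control diet: 5 samples from healthy rats, 5 from rats with a tumor and no chemotherapy, and 6 from rats with a tumor and chemotherapy. The labels used here name no strain, sex, age, tumor type or chemotherapy agent, so tumor and drug are given only by those words. Libraries numbered 11 and 12, both from the chemotherapy group, were closer to each other than any other pair within a group and were counted as 1 sample. Nothing in the labels says that the samples came from separate animals, so p-values measure the spread between these samples.

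A centrosome holds a pair of centrioles in a cloud of pericentriolar material, and it organises microtubules and copies itself once in each cell cycle. The older centriole carries appendages that let it dock at the membrane and template a primary cilium, whose parts are carried outward by IFT-B and returned by IFT-A complexes. Mature muscle fibers have left the cell cycle, and much of their microtubule nucleation moves from the centrosome to the nuclear envelope and the Golgi, while satellite cells, fibroblasts, endothelial and other mononuclear cells in the tissue keep centrosomes and can form cilia. In whole muscle, fewer cells of a type and less RNA per cell cannot be told apart.

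Named entries held between 3020821 and 15719080 counts per deposited library. Members held 0.0512% to 0.0969% of them. Of the 54 members, 49 passed the filter on low counts and were tested among 11856 genes: 30 Cep, 6 Haus and all 13 Ift genes. Cep126, Cep41, Cep55, Cep72 and Haus1 did not pass, with 96, 165, 25, 12 and 128 counts over all libraries. Cep55 acts in the last step of cell division. Cep128, a gene of the subdistal appendages, stands in the table under another biotype and is no member. Levels are given as CPM, a scale that divides counts by library size times a TMM factor; these values are not per gene length, and levels are compared between samples and never between genes. The alignment names carry 1 of 2 suffixes of unknown meaning, MB on healthy libraries 1 to 4 and on libraries 11 and 12, and VM on the others, so the suffix and the group cannot be told apart well.

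Several genes of this set were more abundant in muscle of the chemotherapy group than in healthy muscle, while edgeR called no member in the other comparisons. Called, rose and fell refer to edgeR with all samples unless another tool or choice of samples is named. Against healthy muscle, 5 of the 49 tested members rose with chemotherapy and 0 fell at an adjusted p below 0.05: Cep63, Cep170, Cep290, Cep95 and Cep250, all of them Cep genes. They made up 10.2% of the members, beside 7.30% of all tested genes called higher and 6.41% called lower in that comparison. The median log2 fold change was 0.27 over the members and -0.02 over all genes, and 36 of 49 members and 5786 of 11856 genes had a positive fold change. Cep genes had a median of 0.40, Ift genes 0.16 and Haus genes 0.08. At an unadjusted p below 0.05, 16 members (32.7%) were higher and 2 (4.08%) lower, beside 18.9% and 17.5% of all genes. Only 1 member, Cep95, had all 6 chemotherapy samples above all 5 healthy ones, and 0 had all of them below, where 2.02% and 1.97% of all genes did so.

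These 5 calls depended on which libraries were included. All 5 were lost when any of healthy libraries 1, 3 and 4 or chemotherapy libraries 13, 14 and 15 was left out, with adjusted p from 0.0571 to 0.114, and in each of those fits 0 genes of the whole table were called higher. Without chemotherapy library 16 only Cep63 stayed below the threshold. All 5 stayed called without healthy library 5. Without healthy library 2, chemotherapy library 11 or chemotherapy library 17, 4 stayed called and Cep250 did not. Without healthy library 2 the number of members called went up to 14, without healthy library 5 to 10 and without chemotherapy library 11 to 11. In that order, the shares called higher were 26.5%, 20% and 20.4% of members, beside 16.9%, 10.3% and 12.7% of all tested genes. With the suffix as a term in the model the 5 genes had adjusted p from 0.588 to 0.595 and log2 fold changes from 0.54 to 1.59. In that fit 0 members and 0% of all tested genes were called higher. Without healthy libraries 1, 3 and 4 together, their log2 fold changes were 0.43 to 1.06 (adjusted p = 0.899). With VM libraries only, which leave 1 healthy sample, they were 0.22 to 2.90. The share of members called higher was above that of all genes in the plot of calls by setting in each setting that called any member, except without chemotherapy library 16.

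**Figure D1:**
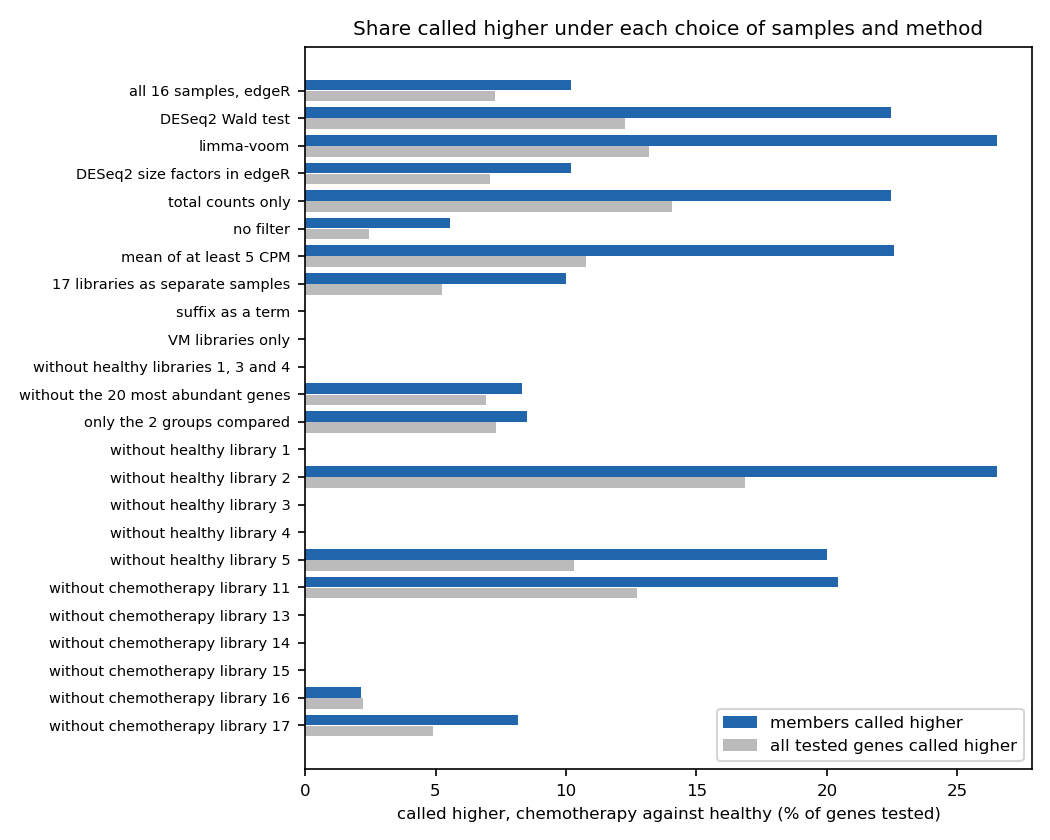
Share of genes called higher in chemotherapy against healthy muscle (horizontal axis, percent of genes tested) under each choice of samples and method (vertical axis), for the members (blue) and for all tested genes (grey). Members stand at 10.2% and all genes at 7.30% with all samples, and both are at 0 without healthy library 1, 3 or 4 and when the model holds the suffix.

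Tumor-bearing muscle without chemotherapy gave 0 called members in either direction by edgeR against healthy muscle, as 0% of all 11856 genes were called higher and 0% lower. DESeq2 called 1 member higher, Cep250, and limma-voom called 0. At an unadjusted p below 0.05, 4 members were higher (Cep250, Cep290, Cep350 and Cep63, 8.16% beside 8.88% of all genes) and 3 were lower (Haus4, Haus5 and Ift27, 6.12% beside 9.12%). Cep250 was the 1 member with every tumor sample above every healthy one and Haus5 the 1 member with every tumor sample below, as were 0.439% and 0.557% of all genes. The median member log2 fold change was 0.09, with 33 of 49 positive, beside 0.01 and 6041 of 11856 for all genes. Without healthy library 2, Cep250, Cep290 and Cep63 were called higher (6.12% of members, beside 2.04% of all genes) and Ift27 lower (2.04%, beside 2.16%). This comparison and the preceding one share the healthy samples, so their values for a gene are not independent.

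Chemotherapy against tumor muscle also gave 0 called members by edgeR, DESeq2 and limma-voom, with 0% of all genes called higher and 0% lower by edgeR. At an unadjusted p below 0.05, Cep44, Haus5 and Ift88 were higher (6.12% of members, 1.97% of all genes) and Cep89 was lower (2.04%, beside 3.81%). Haus5 alone had all chemotherapy samples above all tumor samples, and 0 members had them all below, where 0.186% and 0.295% of all genes did so. The median was 0.19 over the members and 0.00 over all genes. Mean CPM went up in the order healthy, tumor, chemotherapy for 24 of 49 members (49%) and for 29.8% of all tested genes.

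**Figure D2:**
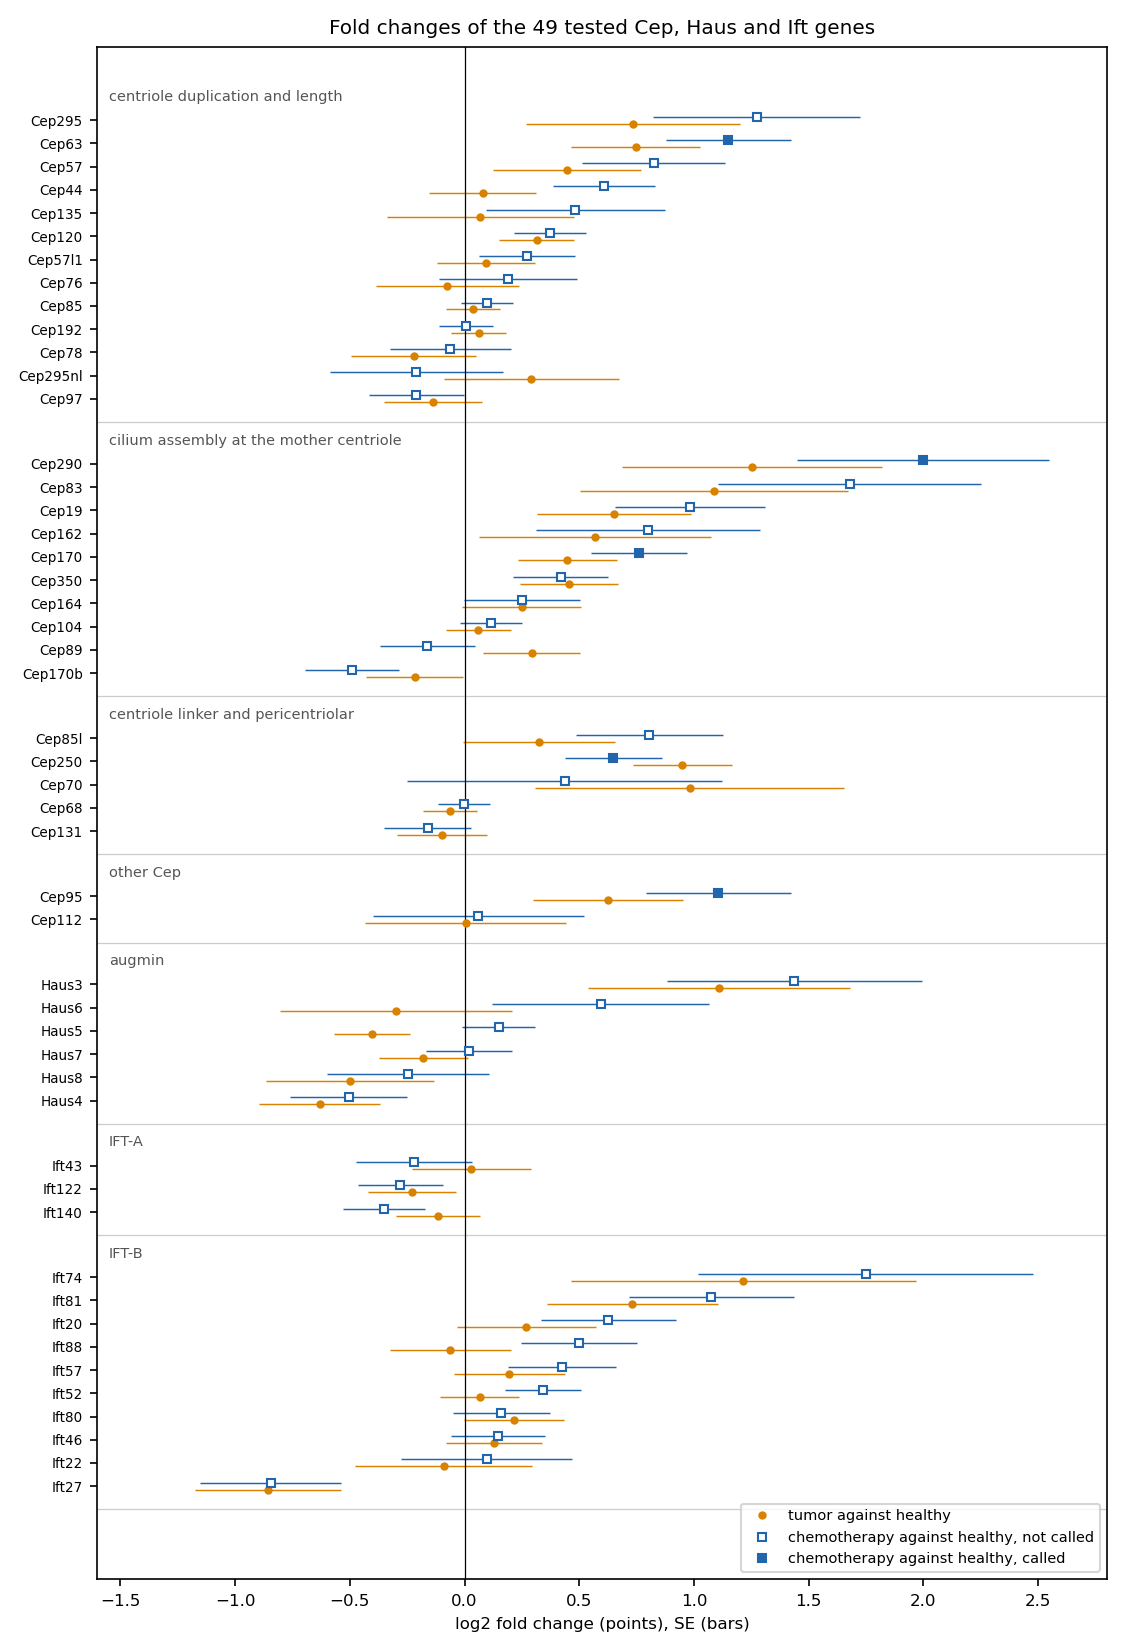
Log2 fold change (horizontal axis, points) with its SE (bars) for each of the 49 tested members (vertical axis, grouped by role) in tumor against healthy muscle (orange circles) and chemotherapy against healthy muscle (blue squares, filled where called). The 5 filled squares lie between 0.65 and 2.0, and the 3 IFT-A genes lie below 0 in the chemotherapy comparison.

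Genes of centriole duplication and length control held 1 of the 5 calls, with 10 of 13 positive fold changes and a median of 0.27 in chemotherapy against healthy muscle. Cep63 builds the ring around the parent centriole from which the new one grows. Its level in healthy libraries 1 to 5 was 5.86, 13.7, 4.49, 6.69 and 8.35 CPM, in tumor libraries 6 to 10 11.9, 15.5, 7.69, 19.4 and 8.99 CPM, and in chemotherapy samples from 12.7 to 21.4 with a median of 17.3. Healthy library 2 lay inside the chemotherapy range and the other 4 healthy samples below it. Cep63 rose in chemotherapy against healthy muscle by a log2 fold change of 1.15 ± 0.27 (SE, adjusted p = 0.0271) and stood at 0.75 ± 0.28 in tumor muscle (adjusted p = 0.242).

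None of the other duplication genes was called by edgeR. DESeq2 and limma-voom each called Cep295 and Cep57 higher with chemotherapy against healthy muscle. Cep295, which helps a new centriole convert to a centrosome, averaged 2.32 ± 1.74 CPM (SD, n = 5) in healthy muscle. Its mean was 3.47 ± 1.30 in the tumor group (n = 5) and 5.05 ± 1.96 in the chemotherapy group (n = 6), with a log2 fold change of 1.27 ± 0.45 against healthy muscle (adjusted p = 0.0587). Cep57, a protein of the inner pericentriolar layer, had 0.82 ± 0.31 (adjusted p = 0.0697). Cep44, which binds the centriole wall, stood at 0.61 ± 0.22 against healthy and 0.53 ± 0.22 against tumor muscle, with adjusted p of 0.0642 and 0.778. Cep192, the scaffold that brings in the kinases of centrosome maturation, was the steadiest member: its means were 22.1 ± 1.68, 23.1 ± 1.33 and 22.3 ± 2.23 CPM, and its SD over all samples was 0.11 on the log2 scale. Cep85, the duplication gene named for its high CPM, had means of 88.3 ± 3.92, 90.5 ± 10.3 and 94.4 ± 9.51.

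Genes of cilium assembly at the mother centriole had the highest median of the larger role groups, 0.59, with 8 of 10 positive and 2 called. Cep290 is part of the gate at the base of the cilium. Healthy libraries 1 to 5 held 1.70, 12.4, 1.91, 1.89 and 2.09 CPM, so library 2 stood far above the other 4. Tumor libraries 6 to 10 held 14.3, 8.67, 3.99, 10.5 and 4.15 CPM, and the chemotherapy samples ran from 5.52 to 22 with a median of 14. Every tumor and chemotherapy sample lay above the 4 lower healthy samples, and library 2 lay inside both ranges. Cep290 rose by a log2 fold change of 2.0 ± 0.55 with chemotherapy (adjusted p = 0.0329), and in tumor muscle the value was 1.25 ± 0.57 (adjusted p = 0.265).

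Cep170, a protein of the subdistal appendages that anchor microtubules, was at 10.8, 20.3, 12, 12.8 and 15.5 CPM in the healthy libraries. Tumor libraries 6 to 10 gave 21.5, 26.8, 13.4, 20.2 and 14.2 CPM, and chemotherapy samples ran from 18.1 to 28.7 with a median of 25.6. Again healthy library 2 was the only healthy sample inside the chemotherapy range. The log2 fold change with chemotherapy was 0.76 ± 0.21 (adjusted p = 0.0321), a rise, and 0.45 ± 0.22 in tumor muscle (adjusted p = 0.281). Its relative Cep170b had the opposite sign, -0.49 ± 0.21 (adjusted p = 0.0942), with means of 29.5 ± 4.01 CPM in healthy and 20.9 ± 4.89 in chemotherapy samples. The counting step could split reads between such relatives.

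Cep83 and Cep19 missed the threshold narrowly by edgeR, while DESeq2 and limma-voom each called both higher with chemotherapy against healthy muscle. Cep83, which anchors the distal appendages, spanned 1.42 to 33.8 CPM over the healthy libraries, 8.36 to 46.7 over the tumor libraries and 19.5 to 48.6 over the chemotherapy samples. Its log2 fold change against healthy muscle was 1.68 ± 0.57 (adjusted p = 0.0547). Cep19, which helps IFT trains enter the cilium, was at 31.0, 61.8, 16.3, 13.5 and 51.8 CPM in the healthy libraries and from 54.8 to 76.9 in the chemotherapy samples, with 0.98 ± 0.33 (adjusted p = 0.0506). The chemotherapy samples lay close together while the healthy ones spread widely. Cep350, a large protein that Cep19 binds, had 0.42 ± 0.21 with chemotherapy (adjusted p = 0.148) and 0.46 ± 0.21 in tumor muscle (adjusted p = 0.274). Cep89, another distal appendage protein, had 6.42 ± 0.739 CPM in tumor and 4.73 ± 0.675 in chemotherapy samples (log2 fold change -0.45 ± 0.20, adjusted p = 0.778).

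**Figure D3:**
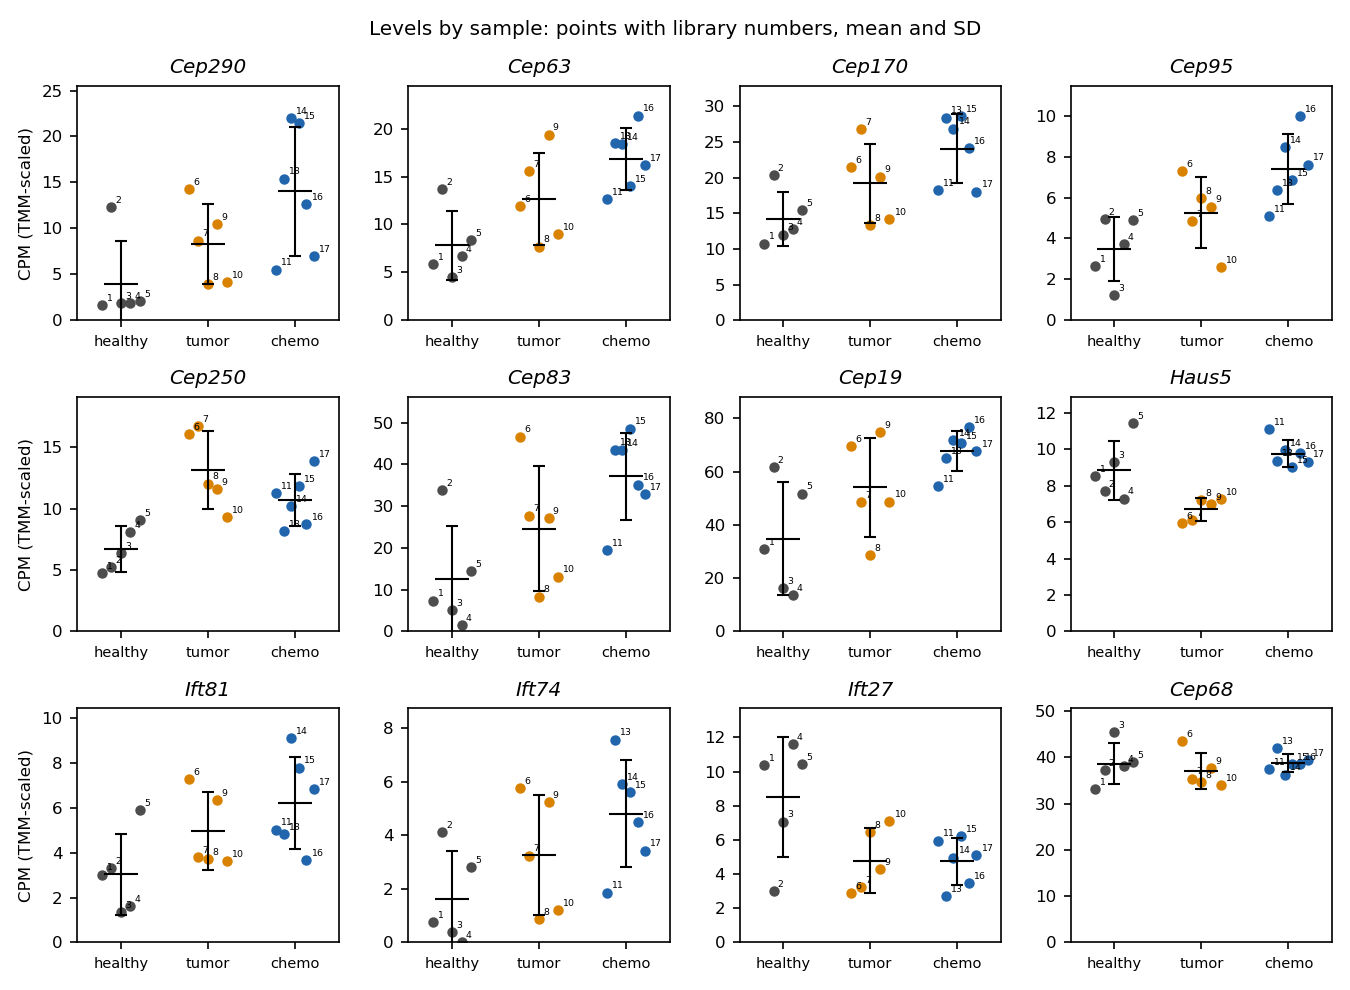
TMM-scaled CPM (vertical axes, starting at 0) of 12 members by sample in healthy, tumor and chemotherapy muscle. Points are samples labelled with their library number, and the bar and whiskers are the mean and SD, with whiskers that would pass below 0 ending there. Healthy library 2 lies high for Cep290 (12.4 CPM) and Cep83 (33.8 CPM), and Cep68 has similar means in all groups.

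Among the centriole linker and pericentriolar genes, Cep250 was the 1 member of 5 called. Cep250, also called C-Nap1, belongs to the linker that holds the 2 centrioles of a pair together. It was at 4.72, 5.22, 6.40, 8.10 and 9.09 CPM in the healthy libraries and at 16.1, 16.8, 12.1, 11.6 and 9.34 CPM in the tumor libraries, so the tumor samples all lay above the healthy ones. Chemotherapy samples ran from 8.16 to 13.9 CPM with a median of 10.8 and overlapped both groups. The log2 fold change was 0.95 ± 0.22 in tumor muscle (adjusted p = 0.211) and 0.65 ± 0.21 with chemotherapy (adjusted p = 0.0479), which makes Cep250 the called member with the larger value in tumor muscle. Cep68, a second linker protein, averaged 38.7 ± 4.41, 37.1 ± 3.87 and 38.7 ± 1.94 CPM in the 3 groups, and its fold change with chemotherapy was 0.00 ± 0.11.

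Cep95, a centrosomal protein placed in no role group, was the member whose chemotherapy and healthy samples did not overlap. Healthy libraries gave 2.64, 4.94, 1.24, 3.71 and 4.91 CPM and chemotherapy samples 5.08 to 9.97 with a median of 7.23. Tumor libraries, at 7.30, 4.86, 5.98, 5.56 and 2.59 CPM, overlapped both. Cep95 rose with chemotherapy by a log2 fold change of 1.11 ± 0.32 (adjusted p = 0.0342), and 0.63 ± 0.33 was measured in tumor muscle (adjusted p = 0.305). The gap between the highest healthy sample and the lowest chemotherapy sample was narrow.

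Augmin recruits the gamma-tubulin nucleating complex to the sides of existing microtubules. None of its 6 tested subunits was called by edgeR in any comparison, while DESeq2 and limma-voom each called Haus3 higher with chemotherapy against healthy muscle. In tumor against healthy muscle 1 of 6 had a positive fold change, with a median of -0.35, and in chemotherapy against tumor muscle all 6 were positive, with a median of 0.29. These opposite signs share the tumor samples. Haus5 was at 8.50, 7.69, 9.27, 7.29 and 11.4 CPM in healthy, at 5.94, 6.10, 7.22, 6.99 and 7.26 in tumor and from 9.04 to 11.1 in chemotherapy samples. The tumor samples were all below the other groups, which overlapped each other. Its log2 fold change was -0.40 ± 0.17 in tumor against healthy muscle (adjusted p = 0.247) and 0.55 ± 0.16 in chemotherapy against tumor muscle (adjusted p = 0.778).

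The other augmin subunits spread more. Haus3 was at 1.32, 4.94, 0.287, 0.270 and 2.70 CPM in healthy and from 2.09 to 6.54 in chemotherapy samples (log2 fold change 1.44 ± 0.56, adjusted p = 0.0755). Haus4 averaged 7.42 ± 2.45, 4.86 ± 1.61 and 5.25 ± 0.777 CPM in the 3 groups. Haus6, Haus7 and Haus8 had log2 fold changes of 0.59 ± 0.47, 0.02 ± 0.19 and -0.25 ± 0.35 with chemotherapy against healthy muscle. With subunits of 1 complex on both sides of 0, the complex showed no common sign in that comparison.

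The Ift members divided by complex in sign, with none called by edgeR. With chemotherapy against healthy muscle, DESeq2 called Ift81 higher and Ift27 lower, and limma-voom called Ift74 and Ift81 higher. Of 10 IFT-B genes, which serve transport outward, 9 had positive fold changes with chemotherapy against healthy muscle, with a median of 0.38. The 3 IFT-A genes among the members, Ift122, Ift140 and Ift43, which serve the return, had -0.28 ± 0.19, -0.35 ± 0.18 and -0.22 ± 0.25 (adjusted p = 0.279, 0.162 and 0.541). Of all 11856 tested genes, 6070 had a negative fold change. Subunits with other names are no members. A list of 10 tested genes held such subunits and also Tulp3, which is not itself a subunit. Of these, 8 were positive and 2 negative, with a median of 0.26, and Tulp3 was among the negative ones (-0.54 ± 0.22, adjusted p = 0.0827). That list was not split by complex, so the signs above describe the Ift-named subunits only. In the VM libraries alone, which leave 1 healthy sample, 2 of the 3 IFT-A and 7 of the 10 IFT-B genes were positive. Without healthy library 2 the positive IFT-B genes were also 7 of 10, and the IFT-A genes all stayed negative. The difference between the complexes was not tested.

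Ift81 and Ift74 form the tubulin-binding pair of IFT-B. Ift81 was at 3.02, 3.29, 1.34, 1.62 and 5.89 CPM in healthy, at 7.30, 3.81, 3.70, 6.35 and 3.63 in tumor and from 3.66 to 9.10 in chemotherapy samples. Only healthy library 5 reached the chemotherapy range. The log2 fold change was 1.07 ± 0.36 with chemotherapy (adjusted p = 0.0506) and 0.73 ± 0.37 in tumor muscle (adjusted p = 0.298). Ift74 had the widest spread of all members, with an SD of 1.41 on the log2 scale over all samples. It was at 0.756, 4.12, 0.382, 0 and 2.82 CPM in healthy libraries 1 to 5, where 0 counts in library 4 allow up to 0.203 CPM by counting error alone, and from 1.86 to 7.56 in chemotherapy samples (1.75 ± 0.73, adjusted p = 0.0941). Both partners were lowest in healthy libraries 3 and 4.

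Ift27, a small GTPase of IFT-B linked to BBSome exit from the cilium, was the IFT-B gene with a negative fold change. Healthy libraries held 10.4, 3.02, 7.07, 11.6 and 10.4 CPM, tumor libraries 2.88, 3.24, 6.46, 4.29 and 7.09, and chemotherapy samples 2.72 to 6.23 with a median of 5.05. Healthy library 2 lay with the low samples and the other 4 healthy libraries lay above the chemotherapy range. The log2 fold change was -0.86 ± 0.32 in tumor muscle (adjusted p = 0.242) and -0.84 ± 0.31 with chemotherapy (adjusted p = 0.0624). Ift88, a core IFT-B subunit, averaged 2.95 ± 0.219, 2.81 ± 0.737 and 4.17 ± 1.14 CPM in the 3 groups, and 0.50 ± 0.25 was its log2 fold change with chemotherapy against healthy muscle (adjusted p = 0.157). Ift52 and Ift20 had 0.34 ± 0.17 and 0.63 ± 0.29 (adjusted p = 0.144 and 0.129).

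The median SD of the members over all samples was 0.45 on the log2 scale, and that of all tested genes 0.39. Healthy library 2 was the highest of the 5 healthy samples for 20 of 49 members (40.8%), beside 28.2% of all tested genes, and library 3 the lowest for 13 (26.5%, beside 15.7%). Library 4 was the lowest for 14 (28.6%), close to its 26.8% of all tested genes. The mean member log2 CPM, taken as a difference from each gene's mean, was -0.27, 0.10, -0.55, -0.47 and 0.01 in healthy libraries 1 to 5 and 0.23, 0.16, -0.22, 0.04 and -0.16 in tumor libraries 6 to 10. In chemotherapy samples it ran from 0.01 to 0.36 with a median of 0.18. The healthy group was thus the most spread and included both values inside the chemotherapy range and the lowest of all.

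The share of library counts on genes of small noncoding RNA tended to be higher where that mean was lower. It was 2.61%, 0.805%, 2.5%, 3.59% and 1.57% in the healthy libraries and 0.812%, 1.05%, 2.15%, 0.862% and 1.70% in the tumor libraries, and ran from 0.688% to 1.40% in the chemotherapy samples. The 5 samples with the highest shares, healthy libraries 1, 3 and 4 and tumor libraries 8 and 10, were also the 5 with the lowest member means. Its part in the member values was not tested.

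**Figure D4:**
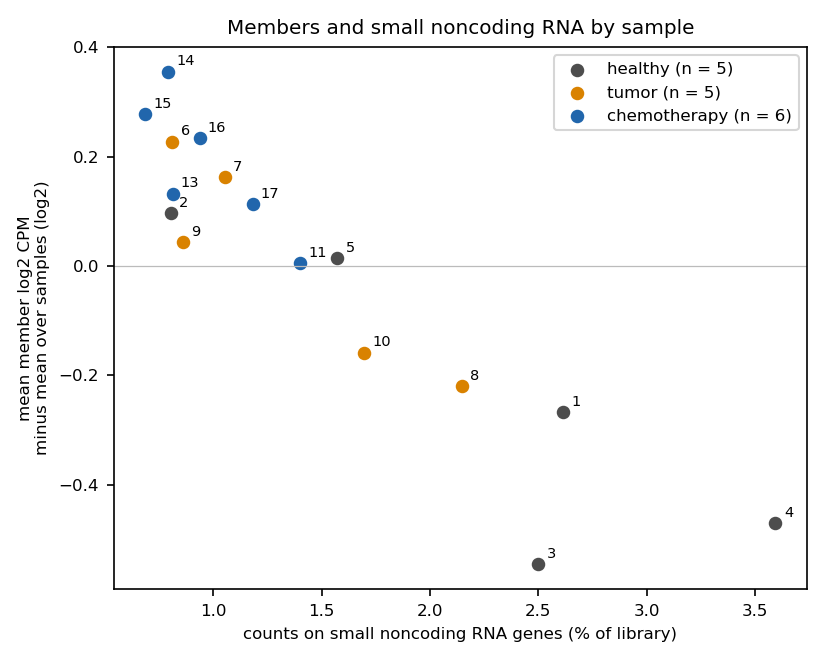
Mean member log2 CPM minus each gene's mean over samples (vertical axis, log2) against counts on genes of small noncoding RNA (horizontal axis, percent of the library), with points labelled by library number and coloured by group. Samples with shares above 1.6%, healthy libraries 1, 3 and 4 and tumor libraries 8 and 10, lie lowest.

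Other genes of the same structures were taken from lists chosen with earlier results of these data known. With chemotherapy against healthy muscle, 7.30% of all tested genes rose and 6.41% fell. Of all 11856 genes, 5786 had positive and 6070 negative fold changes, to be set beside each list below. Centriolar satellite genes, which encode the granules around the centrosome, had positive fold changes with chemotherapy against healthy muscle for all 14 tested, with a median of 0.54, and 3 rose: Ofd1 (1.5 ± 0.36, adjusted p = 0.0271), Ccdc66 (1.01 ± 0.28, adjusted p = 0.0331) and Bbs4 (0.74 ± 0.24, adjusted p = 0.0473). Among 13 BBSome and chaperonin genes, which serve cargo traffic in cilia, 2 rose, Mkks (1.03 ± 0.29, adjusted p = 0.0331) and again Bbs4. Of 16 centriole assembly genes 1 rose, a smaller share than over all tested genes: Cetn2, a centrin of the centriole lumen (1.40 ± 0.32, adjusted p = 0.0264). In the list of 10 IFT genes under older names, with Tulp3 among them, 2 rose: Cluap1 (0.64 ± 0.16, adjusted p = 0.0289) and Traf3ip1 (1.20 ± 0.36, adjusted p = 0.0393). Of 18 transition zone genes 3 rose, Cspp1, Cc2d2a and Iqcb1. None of these lists had a member that fell, and 0 of 12 motor genes of the cilium were called.

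Pericentriolar material and appendage genes went both ways. Of 21 pericentriolar genes, Akap9 rose (1.39 ± 0.45, adjusted p = 0.0485) while Tubg1, the gamma-tubulin that nucleates microtubules, Dctn1, a dynactin subunit, and Tacc2 fell, with log2 fold changes of -0.57 ± 0.16, -0.58 ± 0.15 and -0.64 ± 0.17 (adjusted p = 0.0318, 0.0301 and 0.0301). Of 13 further appendage and linker genes, Sclt1 and Rab3ip rose and Ehd1 fell. In the list for the muscle nuclear envelope, Akap9 and the kinesin Kif5b rose and Lmna, which encodes lamins A and C, fell (-0.75 ± 0.21, adjusted p = 0.0318). Its other proteins were not called: Pcm1, the satellite scaffold that marks muscle nuclei, had 1.06 ± 0.36 (adjusted p = 0.0532), Pcnt 0.16 ± 0.16 and Akap6 0.22 ± 0.24 (adjusted p = 0.475 and 0.504). Syne1 was not analysed here.

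No listed gene of ciliary signaling or division was called higher. Of 20 hedgehog pathway genes, whose signal passes through the cilium, 18 had negative fold changes with a median of -0.43, and 1 fell, Cdon, a coreceptor (-0.56 ± 0.18, adjusted p = 0.0461). Of 13 tested proliferation genes 0 were called. By edgeR with all samples, no gene of these lists was called in the other 2 comparisons, and none of the whole table was. DESeq2 called 17 genes of the whole table higher and 23 lower in tumor against healthy muscle.

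Markers of cell types that can carry cilia or centrosomes are given for the whole muscle. Of 15 multiciliated cell markers, 11 never reached 1 CPM and 4 of these were at 0 in every sample. The 2 tested were the axonemal dyneins Dnah5, from 3.92 to 45.2 CPM, and Dnah11, from 11.5 to 23.1 CPM, with neither called. Dnah5 had log2 fold changes of 1.28 ± 0.44 in tumor and 0.94 ± 0.43 in chemotherapy against healthy muscle (adjusted p = 0.228 and 0.123). The summed level of the list ran from 19.0 to 35.7 CPM in healthy, 39.1 to 64.1 in tumor and 21.7 to 59.8 in chemotherapy samples. The tumor sums all lay above the healthy ones, but neither Dnah5 nor Dnah11 separated these groups alone. In tumor library 10, the lowest tumor sum, Dnah5 at 19.9 and Dnah11 at 18.7 CPM made up most of the 39.1. Among single tested genes 0.439% had all tumor samples above all healthy ones, and no such share was computed for sums. Fibroblast markers, 13 genes, all had negative fold changes with chemotherapy against healthy muscle, and 6 fell. Their summed level ran from 6395 to 16478 CPM in healthy, 4057 to 15029 in tumor and 3383 to 12903 in chemotherapy samples. Of 8 satellite cell markers 1 fell, Pax7, the factor that defines these stem cells (-1.34 ± 0.36, adjusted p = 0.0303), with summed levels of 108 to 145, 81.3 to 109 and 75.0 to 128 CPM. Smooth muscle and pericyte markers fell in 4 of 9, endothelial markers rose in 1 and fell in 1 of 12, and macrophage, tendon and Schwann cell markers had 0 calls. The part of these cell types in the member values was not tested.

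Muscle fiber markers, which define the labelled tissue, were abundant in every sample, with summed levels from 215410 to 341320 CPM. Of 10 tested, Des, Acta1 and Ckm fell with chemotherapy against healthy muscle. Des encodes desmin, Acta1 the skeletal actin and Ckm the muscle creatine kinase. For Des, Acta1 and Ckm, healthy library 2 held the lowest value of the healthy group. The list did not move as one: 3 of the 10 had positive and 7 negative fold changes. Myh4, not called (0.00 ± 0.18, adjusted p = 0.990), had its highest healthy value in library 2, at 120220 CPM. The summed level in library 2 was 294980 CPM, inside the range of the healthy libraries, 246010 to 341320 CPM.

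Promoter windows were read from RefSeq (GRCr8) to see what members share in sequence. They run from 250 bases before to 50 after a start, and 47 of 54 members matched by symbol, with 49 windows. The RFX half-site, GTTGCC on either strand, is the core letters of a motif bound by the RFX factors, known regulators of cilium genes. It was found in 13 of 49 member windows (26.5%) and in 12.4% of 9997 windows of tested genes. The members with it were Cep112, Cep164, Cep170, Cep170b, Cep19, Cep57, Cep89, Cep97, Haus5, Ift20, Ift27, Ift81 and Ift88. A match describes the letters only. Among tested members, 13 with a half-site had 1 call and a median log2 fold change of 0.25 with chemotherapy against healthy muscle, and 30 without had 4 calls and a median of 0.31, so the called genes were not gathered among those with a match.

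The bases from 100 before to 1 before the start are shown for the 7 members with a whole half-site in that stretch. Their fold changes span called, near-threshold and negative values while the letters are shared. Capitals mark the half-site, written GTTGCC where it lies on the gene's strand and GGCAAC where it lies on the other. Cep170 (chr13:91285991-91286090, minus strand), Cep19 (chr11:82192033-82192132, minus strand), Cep57 (chr8:18970845-18970944, minus strand), Cep89 (chr1:97195037-97195136, plus strand), Haus5 (chr1:95050779-95050878, minus strand), Ift81 (chr12:39618522-39618621, plus strand) and Ift88 (chr15:35688887-35688986, plus strand) are given 5′ to 3′.
Cep170: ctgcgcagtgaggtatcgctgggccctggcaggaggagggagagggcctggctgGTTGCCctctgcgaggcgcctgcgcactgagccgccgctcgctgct
Cep19: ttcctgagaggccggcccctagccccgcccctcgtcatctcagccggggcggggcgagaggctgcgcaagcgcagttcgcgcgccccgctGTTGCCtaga
Cep57: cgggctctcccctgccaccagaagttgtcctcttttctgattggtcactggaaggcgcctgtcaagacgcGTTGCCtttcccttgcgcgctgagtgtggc
Cep89: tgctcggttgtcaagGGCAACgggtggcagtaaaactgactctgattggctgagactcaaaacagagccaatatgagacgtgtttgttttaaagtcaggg
Haus5: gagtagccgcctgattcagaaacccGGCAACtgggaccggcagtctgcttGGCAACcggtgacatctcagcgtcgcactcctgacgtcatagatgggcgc
Ift81: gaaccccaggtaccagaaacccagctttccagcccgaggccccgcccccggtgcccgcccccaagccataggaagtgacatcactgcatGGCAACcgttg
Ift88: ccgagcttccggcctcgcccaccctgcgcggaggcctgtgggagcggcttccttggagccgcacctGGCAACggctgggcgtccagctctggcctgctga
Haus5 shows 2 copies, whose first bases lie 75 and 50 bases before the start. Ift81 has one 11 bases before the start and another that begins 4 bases before it and runs past the end of the printed stretch. Cep57 and Ift27 also had 2 copies in their windows, at positions -158 and -30 from the start for Cep57 and -205 and 18 for Ift27. Haus5 is also the member whose tumor samples all lay below the other groups.

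Other letters searched, each on both strands, are compared with windows of tested genes. The GC box GGGCGG stood in 61.2% of member windows and 61.6% of tested-gene windows, CCAAT in 44.9% and 37.2%, GGAAGT in 34.7% and 27.5%, TTCGCG in 8.16% and 8.09%, and TGACGTCA in 4.08% and 2.87%. The E2F-type GCGGGAA was in 20.4% and 7.79% and TTTGAA, the letters of the cell cycle homology region, in 20.4% and 11.5%. TATAAA was in 0% of member windows and 6.97% of tested-gene windows. A longer X-box core was in 1 member window and a ZNF143 motif in 0. GC content had medians of 59.7% and 61.0%. Over all 33469 windows of the annotation, expressed or not, GGGCGG was in 33.1%, GGAAGT in 22.6%, TTCGCG in 3.95%, GCGGGAA in 4.21% and GTTGCC in 12.2%, at a median GC content of 51.7%.

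Members often started beside a gene on the opposite strand. In the same RefSeq annotation, 17 of 47 members (36.2%) had a gene starting within 1000 bases on the other strand, beside 17.5% of 8974 tested genes. In 9 of 12 pairs with both genes tested, the signs of the fold changes with chemotherapy against healthy muscle were the same. The share of equal signs over such pairs of all tested genes was not computed, so 9 of 12 has no value to stand beside. Cep95 pairs with Ddx5, an RNA helicase gene, which rose (0.81 ± 0.20, adjusted p = 0.0279), and Cep63 pairs with Anapc13, an anaphase-promoting complex subunit, which rose too (0.64 ± 0.20, adjusted p = 0.0411). Cep57 stands beside Fam76b, which rose (0.99 ± 0.30, adjusted p = 0.0384). Cep290, beside Tmtc3 at 0.29 ± 0.17 (adjusted p = 0.212), and Cep19, beside Pigx at -0.49 ± 0.20 (adjusted p = 0.0825), had partners that were not called. The same held for Cep170, beside Sdccag8 at 0.88 ± 0.37 (adjusted p = 0.0956). The libraries keep strand, but whether the counting used it is not given in the sources used here, so reads of overlapping or antisense neighbors could be shared.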

How the data were processed

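Stranded libraries of gastrocnemius total RNA, from which ribosomal RNA had been removed per the labels' protocols, numbered 17. The authors deposited raw counts per gene. Per the submitters' processing notes, TopHat2 2.0.10 and Bowtie2 were used, with Trim Galore 0.4.1, CASAVA 1.9 and FastQC 0.11.4. Not given in the sources used here: the build, the gene annotation, and which program counted reads, with what strand setting. Of 32883 entries, 388 without a gene name were left out. The chi-square between libraries 11 and 12, over its degrees of freedom, was 2.03 (5.16 for the next closest pair), and they were summed, giving 16 samples.

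The test was edgeR 4.0.16 (R 4.3.3): TMM scaling, minimum count 10, robust quasi-likelihood fits, 1 model for the 3 groups and Benjamini-Hochberg adjustment over 11856 genes, with calls at an adjusted p below 0.05. SE is the absolute log2 fold change divided by the root of F. DESeq2 1.42.0, limma-voom (limma 3.58.1), other scalings and filters, the 17 libraries kept apart, the suffix and left-out libraries were alternatives. The steps were tested on simulated data. Members and lists were chosen with earlier results of these data known. Members named were those with the smallest p per family in each comparison, the highest CPM and the lowest fold change. Cep19, Cep83, Cep57, Cep68, Cep192, Cep295, Ift122, Ift43 and other members given by value were named after their values were seen. Mean and SD are over samples.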

Additional observations from a re-analysis of the deposited data

Results flagged for a closer look

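In 3 of 78 groups of member values, 1 sample lay farther from its group than Dixon's 95% limit, and chance gives about 1 in 20. Cep290 in healthy library 2 was at 12.4 CPM and the other 4 healthy samples at 1.70 to 2.09. Ift52 in healthy library 5 was at 23.9 CPM and the others at 12.8 to 15.9. Ift88 in tumor library 7 was at 4.10 CPM and the other tumor samples at 2.28 to 2.71.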

How the results depend on the processing

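In chemotherapy against healthy muscle, the 5 called members became 12 by DESeq2, 13 by limma-voom, 11 with total counts only, 3 with no filter, and 0 with the suffix as a term, with VM libraries only and without healthy libraries 1, 3 and 4; with 1 sample left out the number ran from 0 to 14. The cause was not tested. Scaling by total counts moved the median log2 fold change of all genes by 0.14 in this comparison and by 0.12 in tumor against healthy muscle. In tumor against healthy muscle, the 0 called members became 1 by DESeq2, which called 17 genes of the whole table higher and 23 lower. They ran from 0 to 4 with 1 sample left out. In chemotherapy against tumor muscle 0 were called in every setting run. With VM libraries only, which rest on healthy library 5 alone, 12 of 49 members turned sign with chemotherapy against healthy muscle and 17 of 49 in tumor against healthy muscle. Among the members followed through every setting these were Cep97 (0.0097), Haus4 (0.40), Haus5 (-0.265), Ift140 (0.14) and Ift52 (-0.16) with chemotherapy against healthy muscle and for Haus4 (0.20) and Ift81 (-0.262) in tumor against healthy muscle. With chemotherapy against healthy muscle, Haus7 turned to -0.025 with limma-voom and ran from -0.065 to 0.167 with 1 sample left out, and Haus8 ran from -0.42 to 0.077.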

Other observations

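Golgin and other long coiled-coil genes, which encode tethers of the Golgi, endosomes and nuclear pore, shared the sign of most Cep genes. Of 15 tested, 13 had positive fold changes with chemotherapy against healthy muscle, with a median log2 fold change of 0.93, and 5 rose by edgeR. Among them were Golga1, a Golgi tether (0.93 ± 0.24 SE, adjusted p = 0.0294), Rabep1, a tether of early endosomes (1.06 ± 0.30, adjusted p = 0.0347), and Tpr, a protein of the nuclear pore basket (1.36 ± 0.40, adjusted p = 0.0366). Healthy library 2 held the highest healthy level of all 3, at 14.6, 49.1 and 152 CPM. The list was chosen with earlier results of these data known. Over all tested genes, 5786 of 11856 had positive fold changes and 7.30% rose with chemotherapy against healthy muscle. In adipocyte markers all 6 tested had positive fold changes in that comparison, and 1 rose, Fabp4, the fatty acid binding protein of fat cells (0.96 ± 0.25, adjusted p = 0.0294). Chemotherapy library 17 stood apart, with a summed adipocyte level of 552 CPM beside a chemotherapy median of 140 and with Fabp4 at 154 CPM. Without it the log2 fold change of Fabp4 was 0.77 ± 0.23 (adjusted p = 0.048 by edgeR, chosen after seeing the data).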
